A study of Mus musculus with 16 samples.

Results

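The mitochondrial ribosomal proteins are the nuclear-encoded proteins of the ribosome that works inside mitochondria. Members were taken by name, as every annotated gene of the deposited table whose symbol is Mrpl or Mrps followed by a number and at most 1 letter. This gave 78 of the 19069 known genes in a table of 26625 entries, with 49 genes of the Mrpl series (large subunit names) and 29 of the Mrps series (small subunit names). The selection by name used no measured value, although the members and the lists set beside them were chosen with earlier results of these data known. All 78 are protein-coding, and all 78 passed the filter on low counts that left 18826 entries, 14162 of them known genes, for testing.

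The data were read counts per gene from full-length cDNA of the medial prefrontal cortex (mPFC), sequenced on Oxford Nanopore flow cells, 1 library per mouse. All 16 mice were male C57BL/6 animals of 8 to 10 weeks, and all carried an adeno-associated virus that expresses EGFP and an shRNA from the U6 promoter. The Ctrl virus held a negative-control shRNA and the Kdm7a-shRNA virus one against Kdm7a, a histone demethylase. Conditioning lasted 10 days, over which morphine mice were given 10 mg/kg morphine and saline on alternating days and saline mice only saline, and tissue was taken on day 7 of withdrawal. Saline mice numbered 3 with the Ctrl virus (Ctrl + Saline) and 5 with the Kdm7a-shRNA virus (Kdm7a-shRNA + Saline), and morphine mice numbered 4 with each (Ctrl + Morphine, Kdm7a-shRNA + Morphine). The tissue mixed infected with uninfected cells of all types, so fewer cells of a type and less RNA per cell cannot be told apart.

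Mitochondria keep a small genome of their own, whose mRNAs encode core subunits of the respiratory chain and of ATP synthase. These mRNAs are read only by the mitochondrial ribosome. Its RNAs come from the mitochondrial genome, whereas its proteins are made in the cytosol from nuclear genes, imported, and assembled with the help of dedicated factors. Neurons depend heavily on oxidative phosphorylation, and inherited defects of several members cause severe mitochondrial disease.

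Libraries held 6596991 to 12418112 counted reads. Levels are given as normalized CPM (counts scaled to library size, with sizes adjusted by trimmed mean of M values), and a change is called "passed" where edgeR's quasi-likelihood test, adjusted over all 18826 entries, gave an adjusted p under 0.05 and a fold of at least 1.5. Kdm7a, the targeted gene, stood at 9.08 to 9.78 normalized CPM in Ctrl + Saline and at 4.92 to 6.07 in Kdm7a-shRNA + Saline (log2 fold change -0.76, SE 0.20, adjusted p = 0.0153, edgeR). In morphine mice it stood at 6.19 to 8.89 under the Ctrl virus and at 3.01 to 6.28 under Kdm7a-shRNA, and the adjusted p of 0.0506 (edgeR, log2 fold change -0.67) missed the threshold. Members stood apart in 2 mice. Ctrl + Saline replicate 2 held 4 members (Mrpl38, Mrpl54, Mrps2 and Mrps22) at under 50% of both group mates. Kdm7a-shRNA + Morphine replicate 2 held Mrps24 at over 2 times the highest of its group mates. Results that rest on these 2 mice are given with and without them. In Ctrl + Saline replicate 2, 3 members and 0.861% of known genes lay at under 50% of all 15 other mice. In Ctrl + Morphine replicate 2 no member lay so low, but 1.07% of known genes did.

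Members differed widely among themselves in level. Mean levels over the 16 mice ran from 3.53 normalized CPM for Mrps30 to 327 for Mrps17, with a median of 50.2, against a median of 12.2 for all known genes tested. The cDNA was amplified by PCR and carried no molecular identifiers, so reads are not independent molecules, and a comparison of genes per kilobase of longest transcript gives another order than CPM. Per kilobase, Mrps21 led with 455 normalized CPM, followed by Mrpl33 with 401, Mrpl42 with 385 and Mrpl52 with 335. Mrps30 (1.06), Mrps2, Mrpl47 (3.37) and Mrpl19 (3.91) were the lowest. Mrps17, first by CPM, ranked 26 per kilobase, since its longest transcript has 5061 bases. A full-length read counts a transcript once whatever its length, so the scale per kilobase favours short genes and does not rank levels. Mrps21, Mrpl33 and Mrpl52 have longest transcripts of 488, 478 and 463 bases, under the 500 bases that the authors required of a read.

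Within groups the members were steadier than most genes. The within-group SD of the log2 level had a median of 0.14 over members and of 0.29 over known genes, whose levels were also lower. It was smallest for Mrpl13 (0.05) and Mrps33 (0.06). It exceeded 0.3 in 9 members: Mrpl38, Mrpl54, Mrpl57, Mrps2, Mrps6, Mrps15, Mrps22, Mrps24 and Mrps26.

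**Figure D1:**
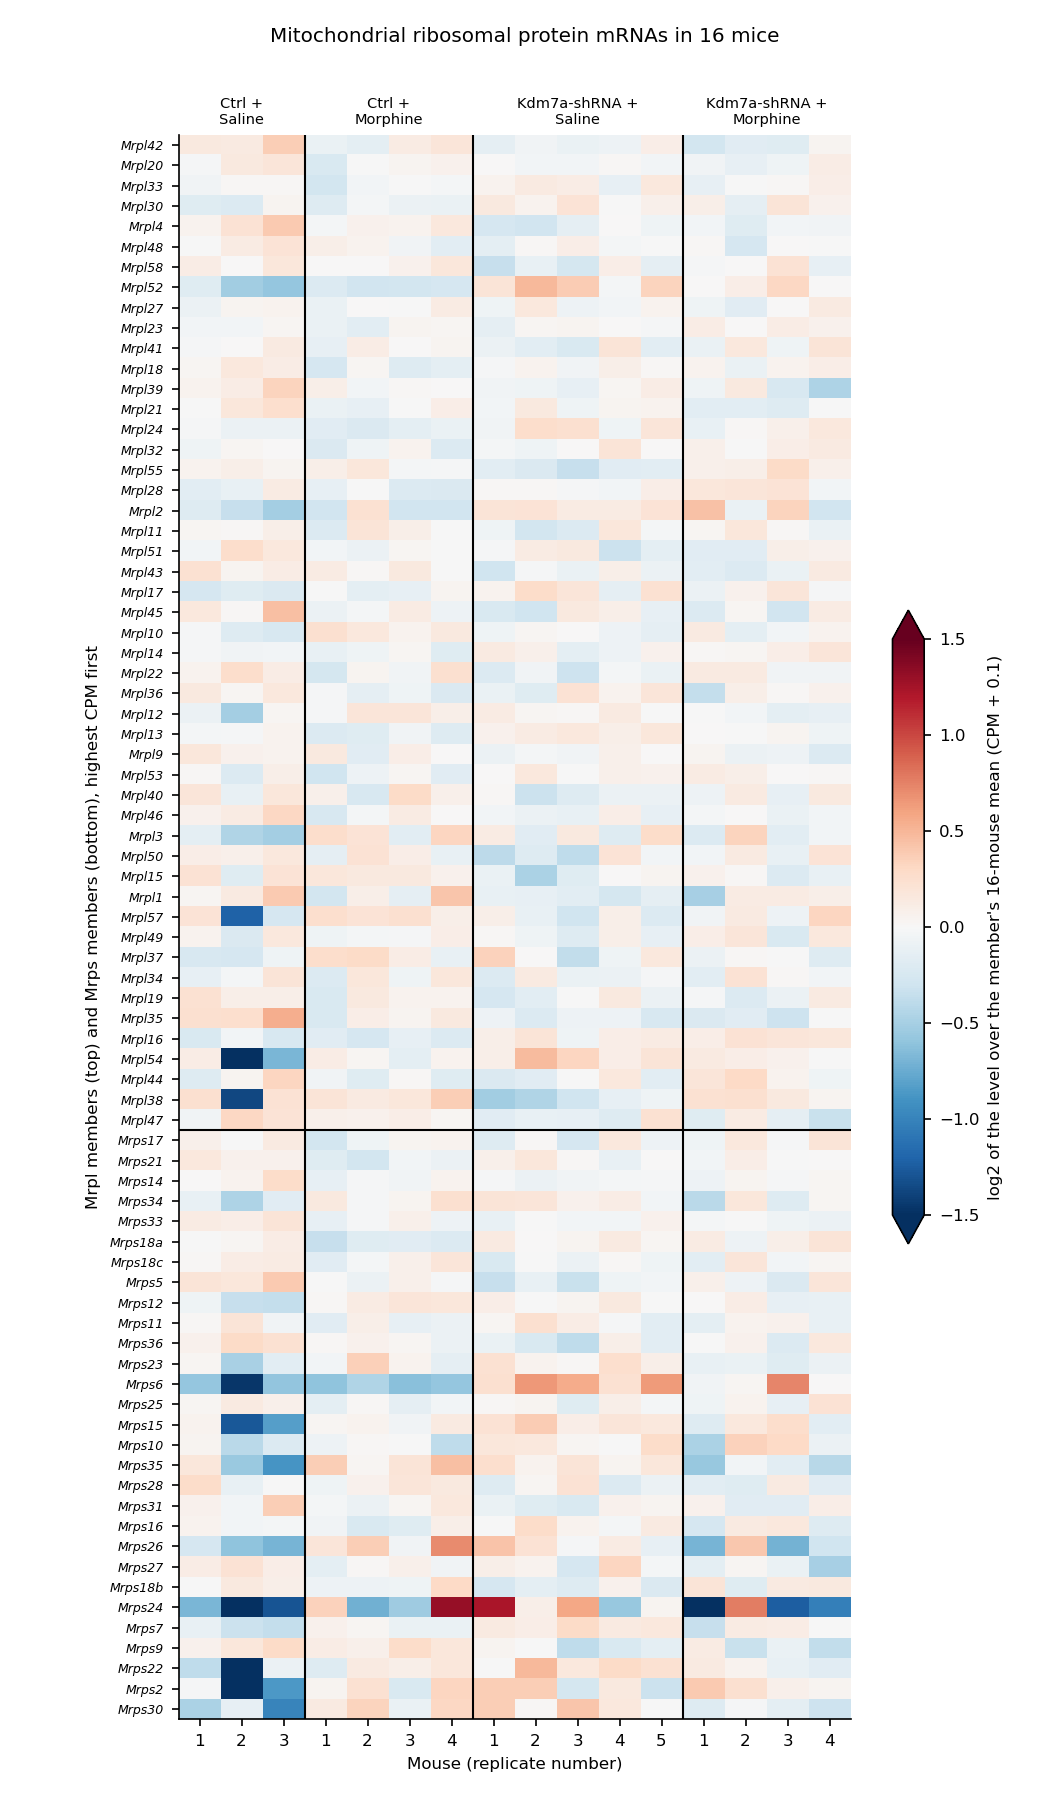
Colours show, for each of the 78 members (rows, Mrpl above and Mrps below, highest mean CPM first) and each of the 16 mice (columns), the log2 of the level over that member's mean across mice, from blue (lower) to red (higher) and cut at 1.5 either way. Most rows are pale in every mouse, Mrps6 and Mrpl52 are blue in the Ctrl columns and pale or red in the Kdm7a-shRNA columns, Ctrl + Saline replicate 2 has several dark blue cells, and Mrps24 changes colour from mouse to mouse.

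The members as a whole were level across the 4 groups. Their summed level was 5867, 5685 and 6147 normalized CPM in Ctrl + Saline, and 5468, 5729.8, 5814 and 5947 in Ctrl + Morphine. In Kdm7a-shRNA + Saline it was 5746, 5976, 5765, 5923 and 5920.5, and in Kdm7a-shRNA + Morphine 5598, 5895, 5864 and 5929. The highest mouse was 1.12 times the lowest, and the groups overlapped throughout. The log2 ratio of group means was -0.01 for knockdown in saline mice and 0.02 in morphine mice, and -0.04 for morphine under the Ctrl virus. Scaling by library size alone moved the first 2 of these to -0.14 and -0.09. On that scale the saline groups no longer overlapped, at 5963 to 6554 CPM in Ctrl + Saline and 5256 to 5772 in Kdm7a-shRNA + Saline, while the morphine groups did. The ratio of summed Mrpl to summed Mrps level stayed between 1.58 and 1.82.

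Gene by gene, most fold changes were small, but many members had a low unadjusted p in saline mice. With knockdown there, 29 of 78 members had an unadjusted p under 0.05 (edgeR), 18 higher and 11 lower, against 34.7% of all entries. In morphine mice 8 of 78 had one, 5 higher and 3 lower, against 25.5%. With knockdown in saline mice the median log2 fold change of the 78 members was -0.07, against 0.10 for known genes and 0.02 for all entries tested. In morphine mice it was -0.0089, against 0.04 and -0.0045. Fewer than 0.25 log2 units separated the groups for 48 of 78 members (61.5%) in saline mice and for 67 of 78 (85.9%) in morphine mice. Among known genes, whose levels were lower, the shares were 43.5% and 52.7%. Nuclear respiratory chain genes had shares near those of the members, 64.9% and 78.7%. The Mrpl and Mrps members had medians of -0.11 and 0.03 in saline mice and of -0.01 each in morphine mice.

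Single members did differ with knockdown, most clearly in saline mice. Between Ctrl + Saline and Kdm7a-shRNA + Saline, 5 of 78 members passed (6.41%), all higher: Mrps6, Mrpl52, Mrps15, Mrps22 and Mrps30. Of all entries 16.7% passed in this comparison, and of known genes 12%, 9% upward, so the share among members lay below the background. By the adjusted p alone 9 members were higher and 4 lower (11.5% and 4.58% of known genes). The levels of the 2 groups did not overlap for 23 members, or 29.5%, against 19.6% of known genes. Between Ctrl + Morphine and Kdm7a-shRNA + Morphine, 1 of 78 members passed, Mrps6, again higher, against 7.69% of all entries and 4.64% of known genes (3.37% upward). The adjusted p alone added Mrps18a (log2 fold change 0.31, SE 0.09, adjusted p = 0.0366, edgeR), where 4.51% of known genes were higher. Mrps18a, today placed in the large subunit, had 88.2 to 99.6 normalized CPM in Ctrl + Morphine and 106 to 128 in Kdm7a-shRNA + Morphine. The levels did not overlap for 7 members, or 8.97%, against 11.9% of known genes.

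**Figure D2:**
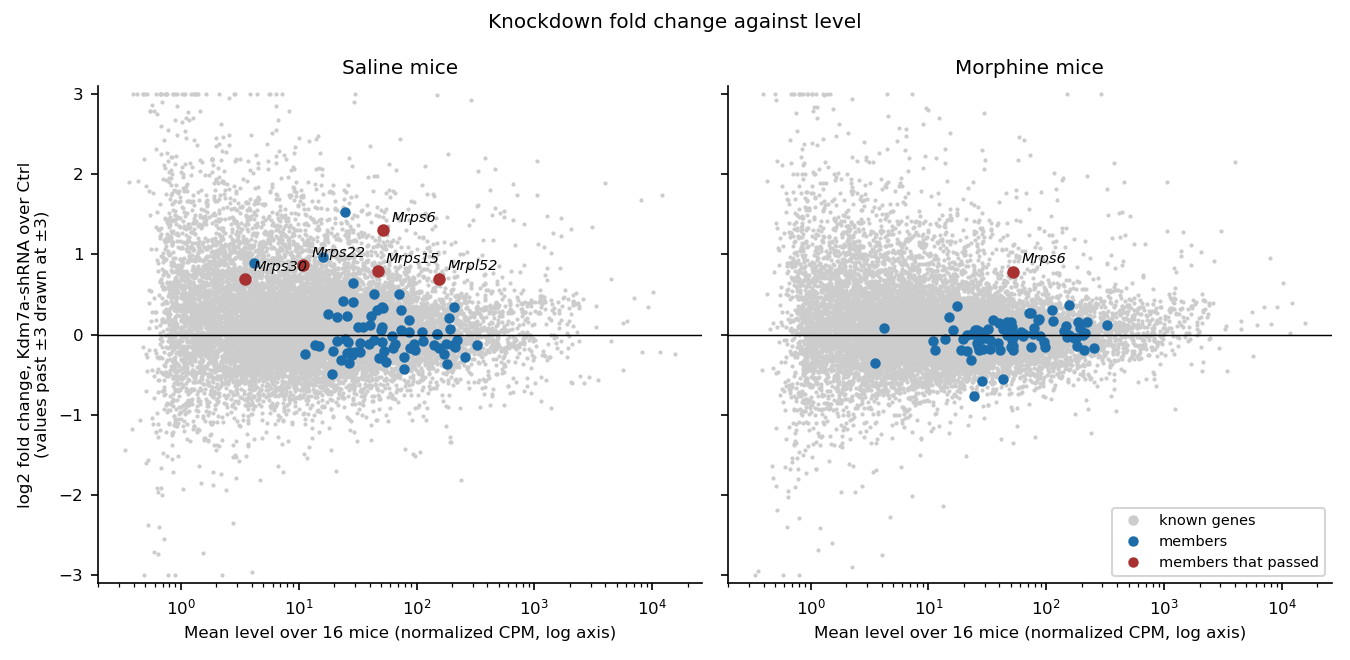
Each point is a gene, placed by its mean level over 16 mice (x, normalized CPM, log axis) and its log2 fold change of Kdm7a-shRNA over Ctrl (y, values past 3 in size drawn at 3), with known genes in grey, members in blue and members that passed in red. The members gather around 0 in saline (left) and morphine mice (right), with 5 red points in saline mice and 1, Mrps6, in morphine mice.

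The bases before the RefSeq transcription start (GRCm38.p6) are given for Mrps6, Mrpl52 and Mrps22. Mrps6 and Mrpl52 are the members of which every knockdown mouse stood above every control mouse. The share of known genes with such a separation was not counted. Mrps22 is the other passing member that holds one of the cores described below the sequences. Capitals mark an ETS core, CCGGAAG or its complement CTTCCGG. The sequences lie at chr16:92058086-92058269 (plus strand), chr14:54426659-54426908 (plus strand) and chr9:98601680-98601929 (minus strand). That of Mrps6 has only 184 bases. It was cut at the start of the annotated gene model, so the bases from there to the RefSeq start are not shown.
Mrps6: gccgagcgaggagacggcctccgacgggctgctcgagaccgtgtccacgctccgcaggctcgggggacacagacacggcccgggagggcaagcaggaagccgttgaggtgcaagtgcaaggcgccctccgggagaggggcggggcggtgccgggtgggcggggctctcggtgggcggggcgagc
Mrpl52: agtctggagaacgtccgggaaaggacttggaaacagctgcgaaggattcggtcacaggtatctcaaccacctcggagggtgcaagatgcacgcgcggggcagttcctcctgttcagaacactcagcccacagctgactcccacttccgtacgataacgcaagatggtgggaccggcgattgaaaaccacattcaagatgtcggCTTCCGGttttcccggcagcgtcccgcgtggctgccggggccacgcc
Mrps22: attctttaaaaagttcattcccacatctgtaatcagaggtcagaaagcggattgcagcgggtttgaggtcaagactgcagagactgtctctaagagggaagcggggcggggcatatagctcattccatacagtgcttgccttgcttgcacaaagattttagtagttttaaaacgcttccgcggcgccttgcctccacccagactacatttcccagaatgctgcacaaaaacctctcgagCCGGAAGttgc
The core of Mrpl52 lay on the minus strand, 47 to 41 bases before the start, and that of Mrps22 on the plus strand, 11 to 5 bases before it. ETS factors of the GABP type, NRF1 and YY1 are textbook regulators of nuclear genes for mitochondria, and exact cores of each were searched on both strands in windows of 300 bases, 250 of them before the start. A window was at hand for 69 members. The ETS core CCGGAAG was found in 26 of them (37.7%), against 15.0% of 14492 known genes. The YY1 core AAGATGGC was in 12 (17.4%, against 3.99%), and the NRF1 core CGCATGCG, which reads the same on both strands, in 7 (10.1%, against 3.26%). The end of the ETS core can share 3 bases with the start of the YY1 core, and 31 members held none of the 3. Mrps6, Mrps15 and Mrps30 were among these, and a match is a run of letters, not a shown binding site.

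Mrps6, a small subunit protein with a bacterial counterpart, showed the largest change that passed. The gene lies at chr16:92058270-92112227 (mm10, plus strand). Its levels were 34.9, 18.8 and 34.6 normalized CPM in Ctrl + Saline and 61.4, 81.6, 77.0, 61.1 and 81.5 in Kdm7a-shRNA + Saline. They were 34.3, 38.1, 33.6 and 34.9 in Ctrl + Morphine and 50.3, 53.0, 86.8 and 52.3 in Kdm7a-shRNA + Morphine. Every knockdown mouse thus stood above every control mouse, and replicate 3 of Kdm7a-shRNA + Morphine stood above its group mates. The log2 fold change was 1.31 in saline mice (SE 0.21, adjusted p = 0.00089, edgeR) and 0.79 in morphine mice (SE 0.20, adjusted p = 0.0207), and the difference between the 2 did not pass (interaction -0.52, SE 0.29, adjusted p = 0.54). The saline call held without any single mouse, with Ctrl + Saline replicate 2 left out at 1.07 (adjusted p = 0.00388). The morphine call was lost without Kdm7a-shRNA + Morphine replicate 3 (0.56, adjusted p = 0.0857) and without Ctrl + Morphine replicate 1, 3 or 4 (adjusted p = 0.0514, 0.0590 and 0.0623).

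Of the 78 members, 33 share exon bases with another gene model, 4 of them with a protein-coding one on the same strand, and reads there cannot be given to 1 gene with certainty. Mrps6 is among the 4, and its exons overlap those of Gm49711 and Slc5a3. Gm49711 followed Mrps6 closely, with 27.3 to 39.8 normalized CPM in Ctrl + Saline, 59.6 to 86.9 in Kdm7a-shRNA + Saline, 32.8 to 42.5 in Ctrl + Morphine and 51.1 to 87.7 in Kdm7a-shRNA + Morphine. Its log2 fold changes were 1.12 (adjusted p = 0.001) and 0.69 (adjusted p = 0.021). Slc5a3, the sodium/myo-inositol cotransporter, had a mean of 5.06 normalized CPM and log2 fold changes of 0.14 (adjusted p = 0.664) and 0.36 (adjusted p = 0.258), neither past the threshold.

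Mrpl52, a large subunit protein with no bacterial counterpart, was higher in every knockdown mouse than in any control mouse as well, and passed in saline mice. It lies at chr14:54426909-54429756 (plus strand) and has the shortest longest transcript of all members, 463 bases. Levels were 137, 108 and 104 normalized CPM in Ctrl + Saline and 178, 217, 202, 152 and 195 in Kdm7a-shRNA + Saline. Those of Ctrl + Morphine, 134, 127, 128 and 130.1, lay close together and below the 156, 167, 193 and 155 of Kdm7a-shRNA + Morphine. The log2 fold change was 0.70 in saline mice (SE 0.13, adjusted p = 0.00169, edgeR), and this call held with each mouse left out. In morphine mice it was 0.37 (SE 0.12, adjusted p = 0.0605), which missed the threshold.

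Mrps15, Mrps22 and Mrps30 passed in saline mice and not in morphine mice, with lower means in Ctrl + Saline than in any other group. The difference of their knockdown effects between saline and morphine mice did not pass (interaction adjusted p = 0.288, 0.325 and 0.188, edgeR). Mrps15, the counterpart of bacterial S15 at chr4:126046925-126055532, had 48.6, 19.4 and 26.4 normalized CPM in Ctrl + Saline and 50.1 to 60.8 in Kdm7a-shRNA + Saline. Ctrl + Morphine stood at 45.3 to 51.5 and Kdm7a-shRNA + Morphine at 41.1 to 56.2. The first Ctrl + Saline mouse was thus at the level of the other groups and its 2 mates were below them. The log2 fold change was 0.79 (SE 0.21, adjusted p = 0.0144, edgeR) in saline and -0.01 in morphine mice, and the saline call was lost without Ctrl + Saline replicate 2 (0.54, adjusted p = 0.0793) or replicate 3 (0.66, adjusted p = 0.0951). Without replicate 1 of that group the value rose to 1.21 (adjusted p = 0.000314).

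Mrps22, a small subunit protein particular to mitochondria at chr9:98588730-98601660, had 8.33, 2.93 and 10.2 normalized CPM in Ctrl + Saline and 10.8 to 15.2 in Kdm7a-shRNA + Saline, while Ctrl + Morphine (9.48 to 12.2) and Kdm7a-shRNA + Morphine (9.66 to 12) overlapped. Its log2 fold change of 0.86 (SE 0.26, adjusted p = 0.0284, edgeR) fell to 0.47 (adjusted p = 0.0987) without Ctrl + Saline replicate 2, and the call was also lost without Kdm7a-shRNA + Saline replicate 2 (0.80, adjusted p = 0.0618). Mrps30 is named for the small subunit, although the protein is now placed in the large one. It lies at chr13:118378381-118387252 and had only 13 to 42 reads per mouse. Levels were 2.51, 3.22 and 1.72 normalized CPM in Ctrl + Saline and 3.52 to 4.74 in Kdm7a-shRNA + Saline (log2 fold change 0.69, SE 0.23, adjusted p = 0.0391, edgeR). That call was lost without Ctrl + Saline replicate 1 or 3, or Kdm7a-shRNA + Saline replicate 1 or 3, and with replicate 3 of Ctrl + Saline left out the value was 0.47 (adjusted p = 0.213). In morphine mice the values went the other way without passing, 3.29 to 4.48 under the Ctrl virus and 2.82 to 3.48 under Kdm7a-shRNA (log2 fold change -0.35, adjusted p = 0.313).

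**Figure D3:**
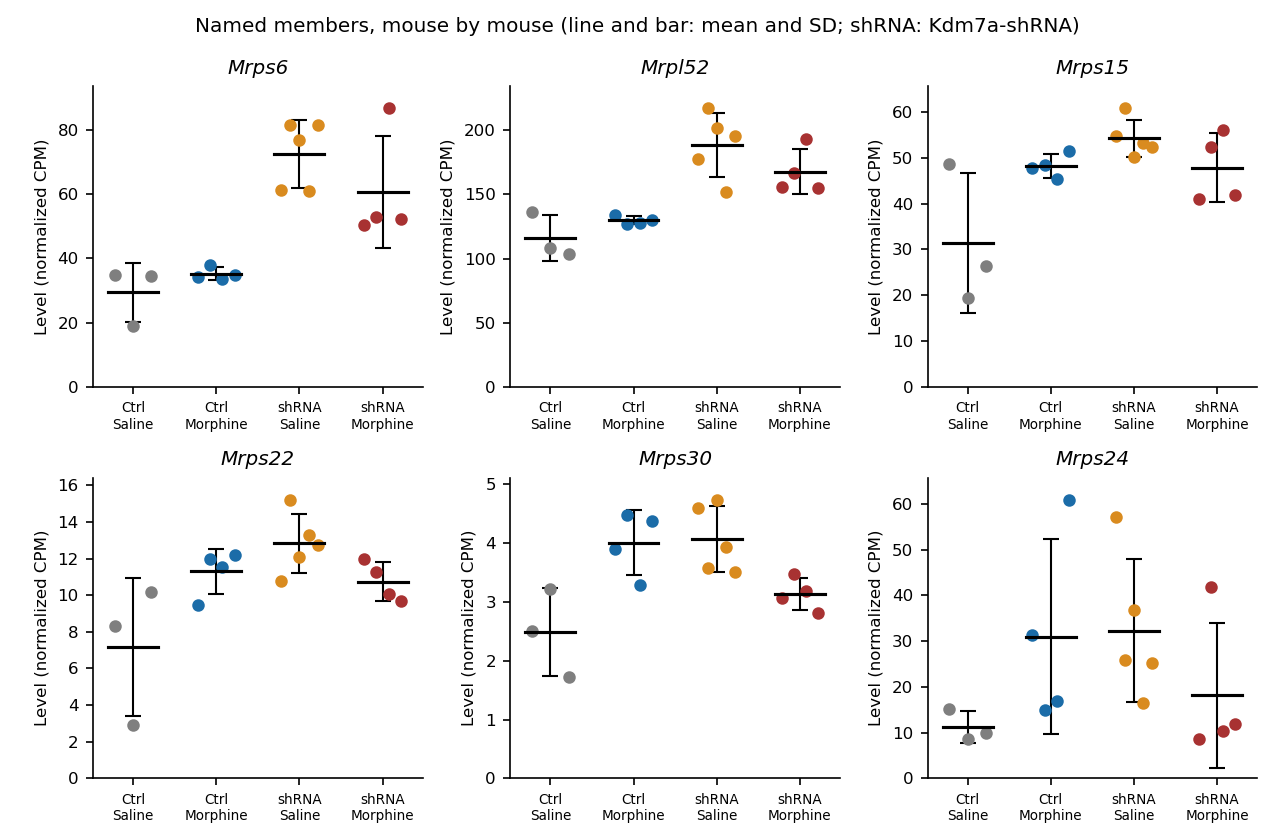
Points are single mice and bars the mean with SD of each group, for the level (normalized CPM, axis from 0) of Mrps6, Mrpl52, Mrps15, Mrps22, Mrps30 and Mrps24. Mrps6 and Mrpl52 separate both knockdown groups from both control groups, Mrps15, Mrps22 and Mrps30 are low mainly in Ctrl + Saline, and Mrps24 spreads from 8.49 to 60.9 and separates only the saline groups.

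Mrps24, a small subunit protein with a bacterial counterpart, had the largest within-group spread of the members. Levels were 15.2, 8.49 and 9.93 normalized CPM in Ctrl + Saline, 31.2, 14.8, 16.9 and 60.9 in Ctrl + Morphine, and 57.1, 25.9, 36.7, 16.4 and 25.2 in Kdm7a-shRNA + Saline. In Kdm7a-shRNA + Morphine 3 mice had 8.58, 10.3 and 11.9 and replicate 2 had 41.8. The groups did not overlap in saline mice and did in morphine mice. The log2 fold change was 1.53 in saline mice (SE 0.56, adjusted p = 0.06, edgeR) and -0.77 in morphine mice (SE 0.50, adjusted p = 0.366), neither passing. Without Kdm7a-shRNA + Morphine replicate 2 the second value was -1.59 with an adjusted p of 0.046 (edgeR), so 1 mouse decided this call. In saline mice Mrps24 passed as higher by the exact test (18.5% of all entries) and with only the compared groups in the fit (16.3%). It also passed there in 3 of the 16 fits with 1 mouse left out (15.7% to 19.8%). Its exons overlap those of Urgcp on the same strand, which had log2 fold changes of 0.34 (adjusted p = 0.0931) and -0.14 (adjusted p = 0.542).

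Mrps26 and Mrps35, further small subunit proteins, are given here after their values were seen, because they joined the calls under some settings. In Ctrl + Saline Mrps26 had 23.9, 18.7 and 17.6 normalized CPM, and in Kdm7a-shRNA + Saline 26.3 to 38.6. In Ctrl + Morphine it had 27.5 to 46.8, and in Kdm7a-shRNA + Morphine 17.6, 37.8, 17.4 and 23.2, so that replicate 2 stood among the controls and its 3 mates below them. Its log2 fold changes were 0.65 (adjusted p = 0.06, edgeR) and -0.58 (adjusted p = 0.107), with an interaction of -1.23 (adjusted p = 0.133). Without Kdm7a-shRNA + Morphine replicate 2 it passed as lower in morphine mice (6.86% of all entries passed) and in the interaction (0.602%), and in morphine mice it also passed with both mice that stand apart left out (6.60%). In saline mice Mrps26 passed as higher without Kdm7a-shRNA + Morphine replicate 2 (16.5%) or replicate 3 (18.3%). It also passed as higher there by DESeq2 (17.8%), by the exact test (18.5%) and with only the compared groups in the fit (16.3%). Mrps35 had 48.5, 29.5 and 23.4 in Ctrl + Saline, 44.7 to 51.5 in Kdm7a-shRNA + Saline, 44.3 to 59.2 in Ctrl + Morphine and 29.1 to 42.1 in Kdm7a-shRNA + Morphine. The morphine groups did not overlap, and it passed as lower there with library size alone as the scale (8.71% of all entries) and without Ctrl + Morphine replicate 2 (8.67%). Its interaction was -1.06 (SE 0.26), with the lowest adjusted p of any member, 0.114 (edgeR). Without Ctrl + Saline replicate 1, Mrps35 passed as higher in saline mice (16%) and as lower in the interaction (1.37%).

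Ctrl + Saline replicate 2 held the lowest level of several members. Mrpl54, a large subunit protein, had 17.3, 2.24 and 9.93 normalized CPM in Ctrl + Saline and 14.5 to 22.4 in the 13 other mice. Mrps2, a small subunit protein, had 4.10, 0.976 and 2.25 in that group and 3.32 to 5.52 in the others. Both thus had a wide control group, and neither passed in saline mice (0.97, adjusted p = 0.0573, and 0.89, adjusted p = 0.0629, edgeR). Both passed as higher there by DESeq2 (17.8% of all entries), by the exact test (18.5%) and without Ctrl + Saline replicate 1 (16%). Without Ctrl + Saline replicate 2 neither passed (10.8% of all entries did).

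With all mice and trimmed-mean scaling, no member was lower past both thresholds. Of the 4 that were lower by the adjusted p alone in saline mice, Mrpl35, a large subunit protein, had the lowest log2 fold change, -0.49 (SE 0.13, adjusted p = 0.0137, edgeR). Its levels were 22.5, 22.7 and 28.0 normalized CPM in Ctrl + Saline and 16.1 to 18.2 in Kdm7a-shRNA + Saline, without overlap. In morphine mice they overlapped, at 16.3 to 21.1 and 15.3 to 19.1 (-0.20, adjusted p = 0.358). With library size alone as the scale Mrpl35 passed as lower in saline mice (-0.62, adjusted p = 0.00416, edgeR). Mrps5, a small subunit protein, had 88.9, 87.4 and 103 in Ctrl + Saline and 61.5 to 75.6 in Kdm7a-shRNA + Saline (-0.43, SE 0.11, adjusted p = 0.0148), while the morphine groups overlapped at 73.6 to 82.2 and 67.1 to 88.7. The others were Mrpl4 (-0.37) and Mrps36 (-0.35), the last of which is now assigned to the 2-oxoglutarate dehydrogenase complex rather than to the ribosome.

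Members with special roles differed little between groups. Mrpl12, a stalk protein that also binds the mitochondrial RNA polymerase, had log2 fold changes of 0.24 (adjusted p = 0.175, edgeR) in saline and -0.19 (adjusted p = 0.32) in morphine mice. Mrps12, of the decoding centre, had 0.30 (adjusted p = 0.0458, under the fold of 1.5) and -0.15 (adjusted p = 0.358). Mrpl44, related to ribonuclease III, had -0.14 and 0.22, and Mrps27, a pentatricopeptide repeat protein, -0.09 and -0.14, none of them past the adjusted p. The most abundant by CPM, Mrps17, Mrpl42, Mrps21 and Mrps14, lay between -0.27 and 0.16 in both comparisons, also without passing.

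Between saline and morphine mice no member passed. Between Ctrl + Saline and Ctrl + Morphine 0 of 78 passed in edgeR (0 of 18826 entries, 0%). An unadjusted p under 0.05 was found for 18 of 78 members, 13 higher and 5 lower, and for 11.7% of all entries. By DESeq2 and by edgeR's exact test 0 of 78 passed, and these called 185 and 162 of all entries. The lowest adjusted p was 0.172, for Mrps12 (log2 fold change 0.37). Levels were 71.2, 58.6 and 58.2 normalized CPM for Mrps12 in Ctrl + Saline and 75.6 to 84.2 in Ctrl + Morphine. Without Ctrl + Saline replicate 1, 3 members passed, Mrps15, Mrps2 and Mrps35, all higher, and 1.18% of all entries. Between Kdm7a-shRNA + Saline and Kdm7a-shRNA + Morphine 0 of 78 passed in edgeR (0.00531% of entries), with 2 at an unadjusted p under 0.05 (7.02% of all entries were). By DESeq2 and the exact test 0 passed (20 and 15 of all entries). Mrpl38, a large subunit protein, had the largest estimate there, from 9.54 to 13.1 up to 14.1 to 16.2 normalized CPM (0.45, SE 0.23, adjusted p = 0.738). Of the interaction of knockdown and morphine, 0.0850% of entries passed and 0 of 78 members in edgeR, 16 at an unadjusted p under 0.05 (10.7% of all entries were), while DESeq2 called 2, Mrps26 and Mrps35, both lower, and 1.15% of all entries. All these comparisons share mice with one another or with those above.

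Single genes passed among other components of the same pathway. Of 5 ribosomal proteins with other symbols, Gadd45gip1 passed in saline mice (0.91). Of 27 assembly factors 3 were higher in saline mice, Malsu1, which docks on the maturing large subunit (2.55), Rbfa (1.23) and Mpv17l2 (0.62), and 2 others were lower in morphine mice, the pseudouridine synthase Rpusd3 (-0.84) and Rcc1l (-0.88). That is 11.1% higher against 9% of known genes in saline mice, and 7.41% lower against 1.27% in morphine mice. None of 17 translation factors and none of 17 mitochondrial aminoacyl-tRNA synthetases passed in either. Of 17 genes that express mtDNA or regulate such expression, Gabpb1 was higher (0.79) and Ppargc1a, a coactivator of mitochondrial genes, lower (-0.80) in saline mice, and Polg2, of the mtDNA polymerase, lower (-1.09) in morphine mice. None of 14 protein quality control genes passed. The 94 nuclear respiratory chain genes tested, the partners of the products of this ribosome, had medians of -0.05 and 0.02. Of these, 5 were higher and 2 lower in saline mice (5.32% and 2.13%) and 1 higher in morphine mice (1.06%). Among known genes 9% were higher and 2.98% lower in saline mice, and 3.37% and 1.27% in morphine mice.

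Beside these, 2 other gene groups of translation were uneven. Cytosolic ribosomal protein mRNAs summed to 77619 to 87557 normalized CPM in Ctrl + Saline and 77754 to 80087.5 in Ctrl + Morphine, against 90348 to 120379 in Kdm7a-shRNA + Saline and 89720.0 to 110754 in Kdm7a-shRNA + Morphine, with no overlap of control and knockdown mice. Their median log2 fold changes were 0.40 and 0.33, and 76 of 78 were positive in each comparison, against 8413 and 7758 of 14162 known genes. Past both thresholds were 6 and 1, all higher. That is 7.69% and 1.28%, below the 9% and 3.37% of known genes that passed upward. With library size alone as the scale the cytosolic medians were 0.27 and 0.22, and those of the mitochondrial members -0.21 and -0.12. A difference between the lists was not tested. The 13 mRNAs of the mitochondrial genome, which this ribosome translates, had medians of -0.20 in saline and 0.41 in morphine mice. In saline mice mt-Co1 and mt-Nd4l were lower (-0.91 each) and in morphine mice mt-Nd4, mt-Nd4l and mt-Co1 higher (0.91 to 1.17). That is 15.4% lower, against 2.98% of known genes, and 23.1% higher, against 3.37%. The saline calls were lost without Ctrl + Saline replicate 2, which left 0 of 13 and a median of 0.02.

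**Figure D4:**
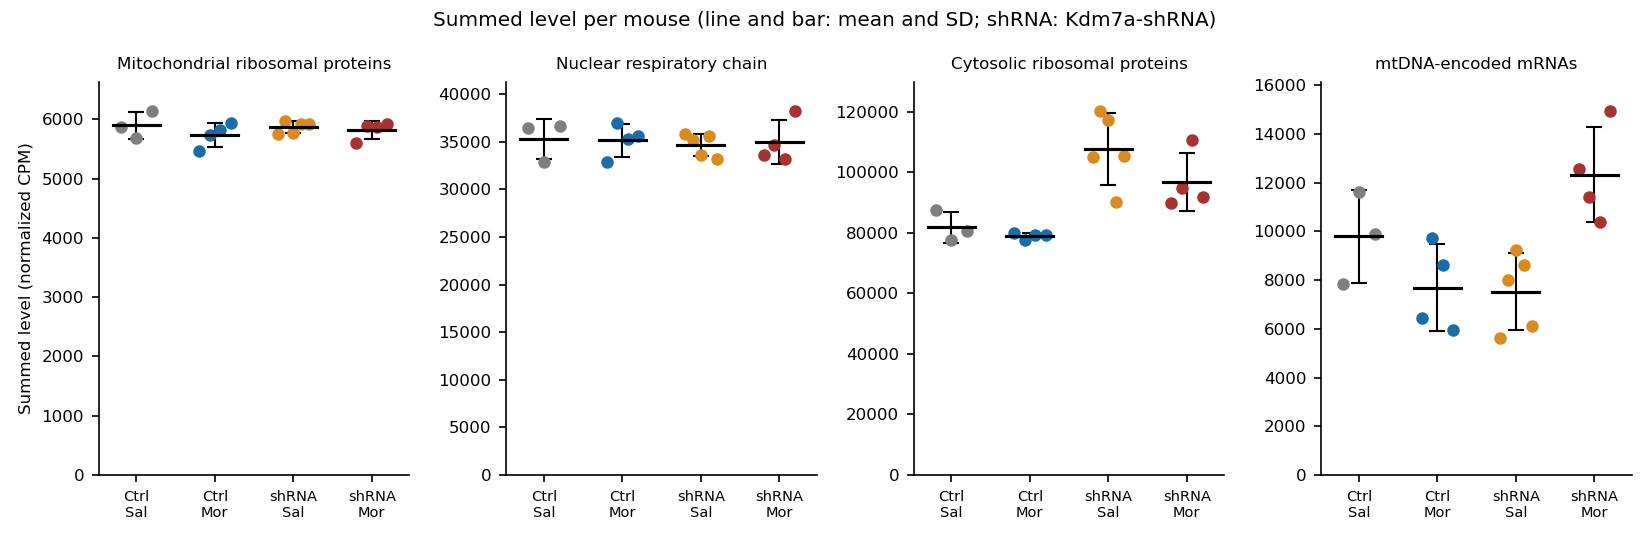
Points are single mice and bars group means with SD, for summed levels (normalized CPM, axes from 0) of the members, nuclear respiratory chain genes, cytosolic ribosomal proteins and mtDNA-encoded mRNAs. The members span 5468 to 6147 normalized CPM over the 16 mice, while the cytosolic ribosomal proteins are higher in both knockdown groups and the mtDNA-encoded mRNAs vary most.

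Transcript length and other cell types moved with knockdown as well. Known genes with a longest transcript under 0.8 kb had a median log2 fold change of 0.20 in saline mice and those over 1.5 kb one of 0.08, whereas the 15 and 32 members of these classes had -0.06 and -0.12. Reads under 500 bases had been dropped, and 3 members have no transcript that long, Mrpl52 among them. Microglia markers ranged from 391 to 835 normalized CPM in summed level over control mice and from 710.4 to 3046 over knockdown mice, 5 of 6 passing in saline and 3 of 6 in morphine mice, although 0 of 6 passed in saline mice without Ctrl + Saline replicate 2. Stress response genes of the ATF4 pathway passed upward in 8 of 15 and 6 of 15 cases (Atf3 3.27 and 2.58, Chac1 2.24 and 1.33). Markers of excitatory neurons (1 of 6 higher in saline mice), inhibitory neurons (2 higher and 3 lower in saline, 1 and 1 in morphine mice), astrocytes (2 and 0 of 6), endothelium (3 and 1 of 6) and pericytes or fibroblasts (1 and 0 of 4) also passed, while none of 6 for oligodendrocytes and 4 for their precursors did. Of all known genes 12% passed in saline mice and 4.64% in morphine mice. The part of transcript length, cell types or stress response genes in the levels of Mrps6 and Mrpl52 was not tested.

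**Figure D5:**
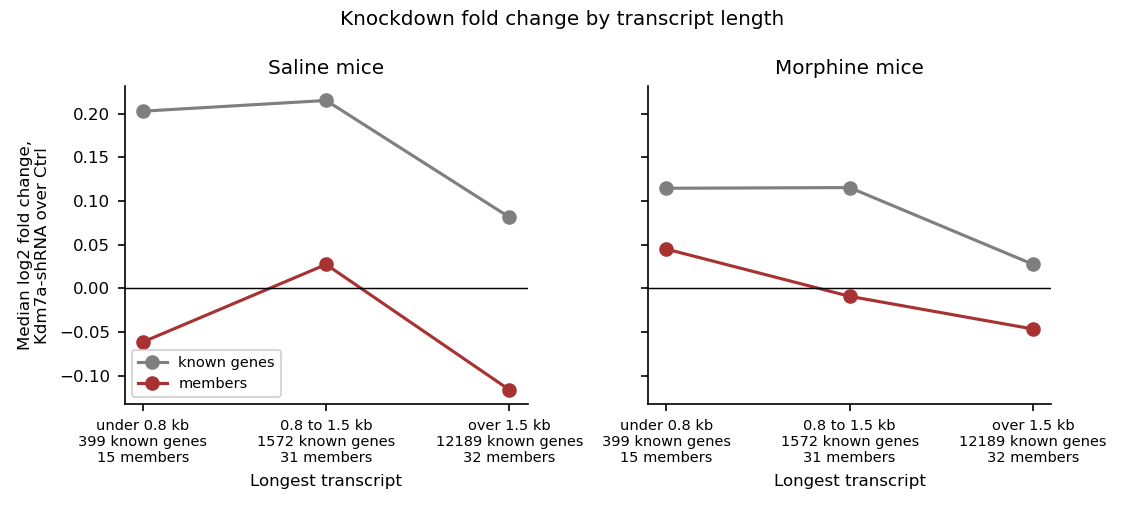
Points are the median log2 fold change of Kdm7a-shRNA over Ctrl (y) of all known genes (grey) and of the members among them (red) in 3 classes of longest transcript (x), for saline (left) and morphine mice (right). The members lie below the known genes in each class, by the widest gap in saline mice under 0.8 kb (-0.06 against 0.20).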

How the data were processed

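Medial prefrontal cortex of 16 mice was sequenced as full-length cDNA. According to the study's methods, the authors kept reads of quality 7 or more and of 500 bases or more, removed rRNA reads, mapped full-length reads to mm10 with minimap2, merged isoforms with Pinfish and cDNA Cupcake (coverage 0.85, identity 0.9) and counted reads of match quality over 5. The authors deposited raw counts per gene and the same counts scaled to the library total as CPM. The annotation release is not given in the sources used here. The deposited CPM was used only to check the counts. The authors' own edgeR (3.8.6) comparisons were not used.

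Tests used the counts as deposited, in edgeR 4.0.16 under R 4.3.3 (low-count filter, trimmed-mean scaling factors of 0.913 to 1.07, 1 quasi-likelihood fit over all groups, common biological coefficient of variation 0.215), with Benjamini-Hochberg adjustment over all 18826 entries tested, and checked on simulated data. A gene passed at an adjusted p under 0.05 and a fold of at least 1.5. DESeq2 1.42.0 served as an alternative, as did edgeR's exact test, other scalings and filters, and leaving out each mouse. Nothing says that the mice of a group differ in batch, and p-values measure the spread between these mice. Named members were those that passed, the highest and lowest fold changes of each comparison, the 4 highest and 4 lowest levels, and 4 chosen by role, with at most 4 passing genes per other list. The members and lists were chosen with earlier results of these data known. The cytosolic list leaves out Rps6k and Rps19bp genes, and the respiratory list includes assembly factors. Promoter sequences came from RefSeq. Total counts of 6596991 to 12418112 set the precision. Low members, such as Mrps30, rest on few reads.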

Additional observations from a re-analysis of the deposited data

Results flagged for a closer look

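In 3 of 84 groups tested among the named quantities, 1 mouse stood far from its group mates. Mrps6 was at 86.78 normalized CPM in Kdm7a-shRNA + Morphine replicate 3, against 50.3 to 53.0 in the other 3 mice, a gap of 0.925 of the group's range. Mrps24 was at 41.85 in Kdm7a-shRNA + Morphine replicate 2, against 8.58 to 11.9 (0.899 of the range). Mrpl47, a large subunit protein, was at 13.27 in Kdm7a-shRNA + Saline replicate 5, against 9.90 to 10.5 (0.826 of the range). Chance gives about 1 in 20 such groups, and over all members 16 of 234 groups (6.84%) held one.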

How the results depend on the processing

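In saline mice, where 5 members passed with knockdown, these alternatives moved the count. Library size alone as the scale gave 3 (Mrps6, Mrps15 and, lower, Mrpl35, with 17.6% of all entries), the replicate block (17%) and known genes alone (9.74% of those) gave 3 each (Mrps6, Mrpl52, Mrps15), and leaving out both mice that stand apart gave 3 (Mrps6, Mrpl52, Mrps30, 10.7%). The exact test gave 9 (18.5%) and the adjusted p alone 13 (20.3%). DESeq2 gave 7 (17.8%), with Mrpl54, Mrps2 and Mrps26 and without Mrps30. The fit with no filter on low counts gave 4, without Mrps30 (12.8%). With only the compared groups in the fit the count stayed at 5 (16.3%), but Mrps24 and Mrps26 took the place of Mrps22 and Mrps30. Leaving out both mice was chosen after seeing the data. In morphine mice (1 passed), library size alone, the adjusted p alone and leaving out both mice gave 2 each. DESeq2 called 2 members in the interaction. Leaving out 1 mouse gave 3 to 7 members in saline mice (3 without Ctrl + Saline replicate 2 or 3), 0 to 3 in morphine mice, 0 to 3 for morphine under the Ctrl virus, 0 for morphine under Kdm7a-shRNA and 0 to 2 for the interaction. Mrps6 passed in saline mice in each of these fits, and Mrpl52 in all but that with library size alone (0.57, under the fold of 1.5). Nothing says that the replicate numbers pair the mice. Deviations of same-numbered mice correlated at -0.24 to 0.60 (median 0.02) and those of other-numbered mice at -0.66 to 0.56 (median -0.003). These ranges are alike, but they cannot settle whether the mice were paired. The replicate block left 1 call, Mrps6, in morphine mice.

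Kdm7a in morphine mice had log2 fold changes of -0.77 (library size alone), -0.66 (DESeq2) and -0.68 (exact test), each past the threshold, and of -0.80 to -0.47 with 1 mouse left out. In saline mice these were -0.80 to -0.72, and the call was lost without Ctrl + Saline replicate 3 (adjusted p = 0.0533, edgeR). The summed level of members had log2 ratios of -0.14 in saline and -0.086 in morphine mice with library size alone, which moved the median of all genes by -0.13 and -0.11, and of -0.0506 to -0.00062 and -0.004 to 0.04 with 1 mouse left out. By coding length, the fold change of known genes under 0.8 kb exceeded that over 1.5 kb by 0.11 in morphine mice, against 0.09 by longest transcript. No call changed direction under any alternative run, whereas values without a test did, such as the summed level in morphine mice (above) and the saline median of the mtDNA mRNAs (0.02 without Ctrl + Saline replicate 2). Causes of these changes were not tested. With few reads per low gene and 3 to 5 mice a group, a small difference could go undetected. One under the fold of 1.5 could not pass whatever its adjusted p.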
